A study of Mus musculus with 24 samples.

Results

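Probes for miRNAs known from leukocytes, mmu-miR-142-3p, mmu-miR-142-5p, mmu-miR-146a, mmu-miR-146b, mmu-miR-150, mmu-miR-155 and mmu-miR-223, were read in tumors, normal tissues and cultures of the JygMC(A) model of mouse mammary cancer (the species prefix is left out from here on). The probes were chosen by name, as the rows of the deposited table for these miRNAs, and all 7 of 7 were found among the 566 mouse miRNA probes of the nCounter assay, which counts color-coded probes without amplification. The 24 samples were carcinoma areas (n = 5) and EMT-like areas (n = 7) of primary mammary tumors (together PT, n = 12), lung metastasis (n = 4), normal mammary gland (NMG, n = 2), normal lung parenchyma (n = 2), and JygMC(A)-GFP/Luc cells grown as monolayer (n = 2) or as 3D-spheres (n = 2). EMT-like areas are spindle-cell areas with the look of an epithelial-mesenchymal transition. Tumors had been raised by orthotopic injection of the GFP- and luciferase-tagged cell line into the mammary fat pads of female Balb/C nude mice, and all tissue samples, NMG and lung included, came from this strain and were captured by laser. Nude mice lack the thymus and therefore most T cells, but keep B cells, natural killer cells and myeloid cells. Cultures hold cells of 1 tumor cell line and no host cells. Tumor samples share animals, 1 carcinoma, 1 EMT-like and 1 lung metastasis sample carry a label naming 3 animals, and NMG and normal lung came from other animals, 2 in all.

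A miRNA is cut from a hairpin precursor and represses mRNAs that pair with its seed, the bases near its 5′ end. miR-142 is made in nearly all blood cell lineages and is a common marker of leukocytes in tissue. miR-150 is abundant in mature lymphocytes, miR-223 in neutrophils and other myeloid cells. miR-146a and miR-146b are induced by NF-κB and dampen Toll-like receptor signaling, and both are also made outside the blood. miR-155 is induced in activated lymphocytes and macrophages and is processed from the transcript of Mir155hg.

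Mature sequences were taken from RefSeq (GRCm38.p6), which held 6 of the 7 members under their present names. They are shown because the seeds separate the members into families and because 2 of the members are arms of the same hairpin. Capitals mark the seed, bases 2 to 8.
miR-142-3p (miR-142a-3p): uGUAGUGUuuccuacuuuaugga
miR-142-5p (miR-142a-5p): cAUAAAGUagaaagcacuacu
miR-146a (miR-146a-5p): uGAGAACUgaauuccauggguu
miR-146b (miR-146b-5p): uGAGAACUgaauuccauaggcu
miR-155 (miR-155-5p): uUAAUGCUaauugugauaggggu
miR-223 (miR-223-3p): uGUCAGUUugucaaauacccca

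miR-142-3p lies at chr11:87756903-87756925 and miR-142-5p at chr11:87756867-87756887, both on the plus strand, and 15 bases separate them in the 64-base hairpin of Mir142. miR-146a lies at chr11:43374435-43374456 on the minus strand and miR-146b at chr19:46342790-46342811 on the plus strand. The miR-146 pair shares its seed with no other of the 1679 mature mouse miRNAs in the table, and differs at 2 of 22 positions, G18A and U21C, with the base of miR-146a first and positions counted from the 5′ end. miR-155 lies at chr16:84714143-84714165 inside the lncRNA gene Mir155hg, and miR-223 at chrX:96242884-96242905 inside the lncRNA gene F630028O10Rik. The gene of miR-150 spans chr7:45121757-45121821. No other mature mouse miRNA in the table carries the seed of miR-142-3p, miR-142-5p, miR-155 or miR-223.

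From every deposited count the average of the lane's 6 negative controls had been taken off, and the sum of the mouse miRNA values ran from 24418 in a monolayer lane to 2334955 in a normal lung lane. Fold changes therefore rest on normalized values, which are deposited values, floored at 0, divided by a scaling factor of the lane, and these factors ran from 0.403 to 5.63. Detection required a value exceeding the negative control average by 2 SD of those controls, which gave limits between 4 and 21.4. Levels were compared within a probe only, because probes differ in efficiency. In these bulk samples, fewer cells of a type and less RNA per cell cannot be told apart.

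The arms of the miR-142 hairpin were read very differently. Deposited values of miR-142-3p ran from 2 in a sphere lane to 24935 in a normal lung lane, whereas those of miR-142-5p ran only from 27 to 56 over the same 24 lanes. In the 4 culture lanes miR-142-3p stood at 5, 14, 5 and 2, under the detection limit in each, while miR-142-5p stood at 45, 37, 51 and 30. In NMG and normal lung miR-142-3p reached 3485 to 24935, while miR-142-5p stood at 50 to 56. miR-142-5p was thus above the limit in every lane and close to 1 level whether or not its partner arm was detected.

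miR-155 had the same flat course, from 245 in a metastasis lane to 442 in a sphere lane. Its probe name in the deposited table states a share of 0.022 (2.2%) of positive control A, a synthetic target added to each lane in equal amount, whose values ran from 7950 to 11435. The deposited value of miR-155 was 2.80% to 5.23% of positive control A (median 4.04%). Taking off the stated share left between 52.5 and 248 counts (median 173). Whether the authors had already subtracted this share before deposit is not given in the sources used here, and if they had, the remainder takes it off again. This remainder was 222.8 to 248 in the cultures, 171 to 233 in EMT-like areas, 80.7 to 175 in carcinoma and 52.5 to 151 in lung metastasis. In NMG it was 71.7 and 143, and in normal lung 84.3 and 177. The cultures lay above carcinoma, metastasis and both normal tissues, EMT-like areas lay above metastasis and NMG, and the other groups overlapped.

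Among the 56 mouse miRNA probes above the limit in all 24 lanes, miR-155 had the smallest spread of deposited values, with a highest value 1.80 times the lowest, and miR-142-5p came second at 2.07 times. Positive control A itself varied 1.44 times, and the median of the 56 probes was 73.9 times. The next probes were miR-543, at 2.47 times, and miR-423-5p, at 2.98 times. For a value that hardly moves while the sum of a lane moves, scaling by the lane sets the fold change. The scaled differences of miR-142-5p and miR-155, the flat probes, are given with their unscaled values for this reason. How far either probe reads its miRNA in these lanes was not tested.

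**Figure D1:**
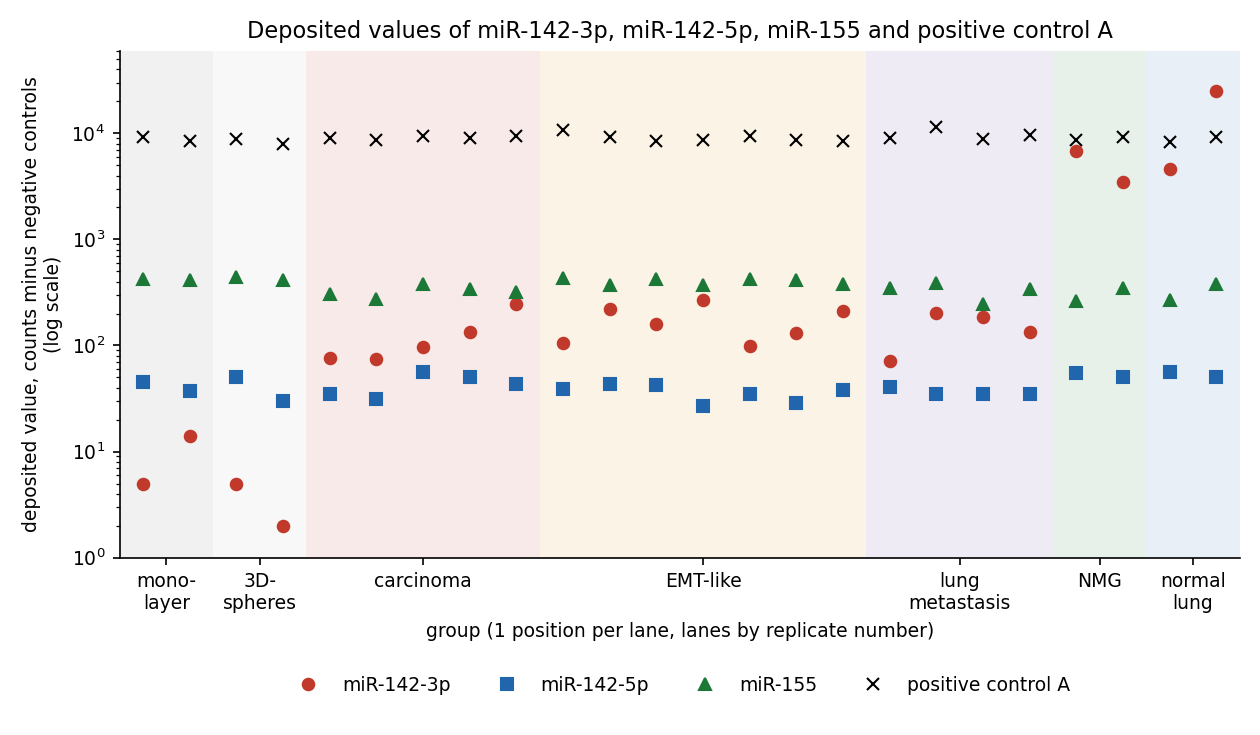
Deposited values (background-subtracted counts, log scale) of miR-142-3p, miR-142-5p, miR-155 and positive control A in each of the 24 lanes, grouped by sample type, with 1 point per lane and probe. miR-142-5p (27 to 56) and miR-155 (245 to 442) ran level across all groups, as did positive control A, while miR-142-3p ran from 2 to 24935.

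The other 5 members varied widely between groups. miR-142-3p, miR-150 and miR-223 were high in both normal tissues, low in all tumor samples and at or near background in culture. The mean normalized value of miR-142-3p was 3652 ± 1094 (SD, n = 2) in normal lung, 2037 ± 1051 (SD, n = 2) in NMG, 228 ± 122 (SD, n = 4) in lung metastasis, 154 ± 107 (SD, n = 5) in the carcinoma areas and 153 ± 64.9 (SD, n = 7) in the EMT-like areas. The 3 tumor groups overlapped, the normal tissues lay above all of them, and the nearest samples of normal lung and NMG, 2878 and 2780, were almost equal. miR-223 stood at 646 ± 192 (SD, n = 2) in NMG and 529.6 ± 12.3 (SD, n = 2) in normal lung, while the tumor groups overlapped, with EMT-like areas at 131 ± 38.5 (SD, n = 7), carcinoma at 149.5 ± 125 (SD, n = 5) and metastasis at 83.5 ± 34.1 (SD, n = 4). Of miR-142-3p, miR-150 and miR-223, only miR-150 had a step between tumor groups, from EMT-like areas at 41.4 ± 17.1 (SD, n = 7) and carcinoma at 38.4 ± 11.9 (SD, n = 5) to metastasis at 256 ± 105 (SD, n = 4), with 1353 ± 956 (SD, n = 2) in NMG and 1187 ± 65.7 (SD, n = 2) in normal lung.

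The miR-146 pair was more even. miR-146a was highest in normal lung, at 2208 and 2352, and the other tissue groups overlapped, with means for EMT-like areas of 664 ± 112 (SD, n = 7), 586 ± 399 (SD, n = 5) in carcinoma, 508 ± 104 (SD, n = 2) in NMG and 381 ± 209 (SD, n = 4) in metastasis. miR-146b was also highest in normal lung, at 276 and 316, followed by metastasis at 154.7 ± 40.7 (SD, n = 4), carcinoma at 153 ± 84.5 (SD, n = 5), NMG at 127 ± 54.2 (SD, n = 2) and EMT-like areas at 56.0 ± 31.2 (SD, n = 7). From metastasis down, each group overlapped the next, although every metastasis (116.8 to 192.7) lay above every EMT-like sample (25.4 to 110.1). In the 21 combinations of a member with a group of 4 or more samples, Dixon's test set no sample apart from its group.

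**Figure D2:**
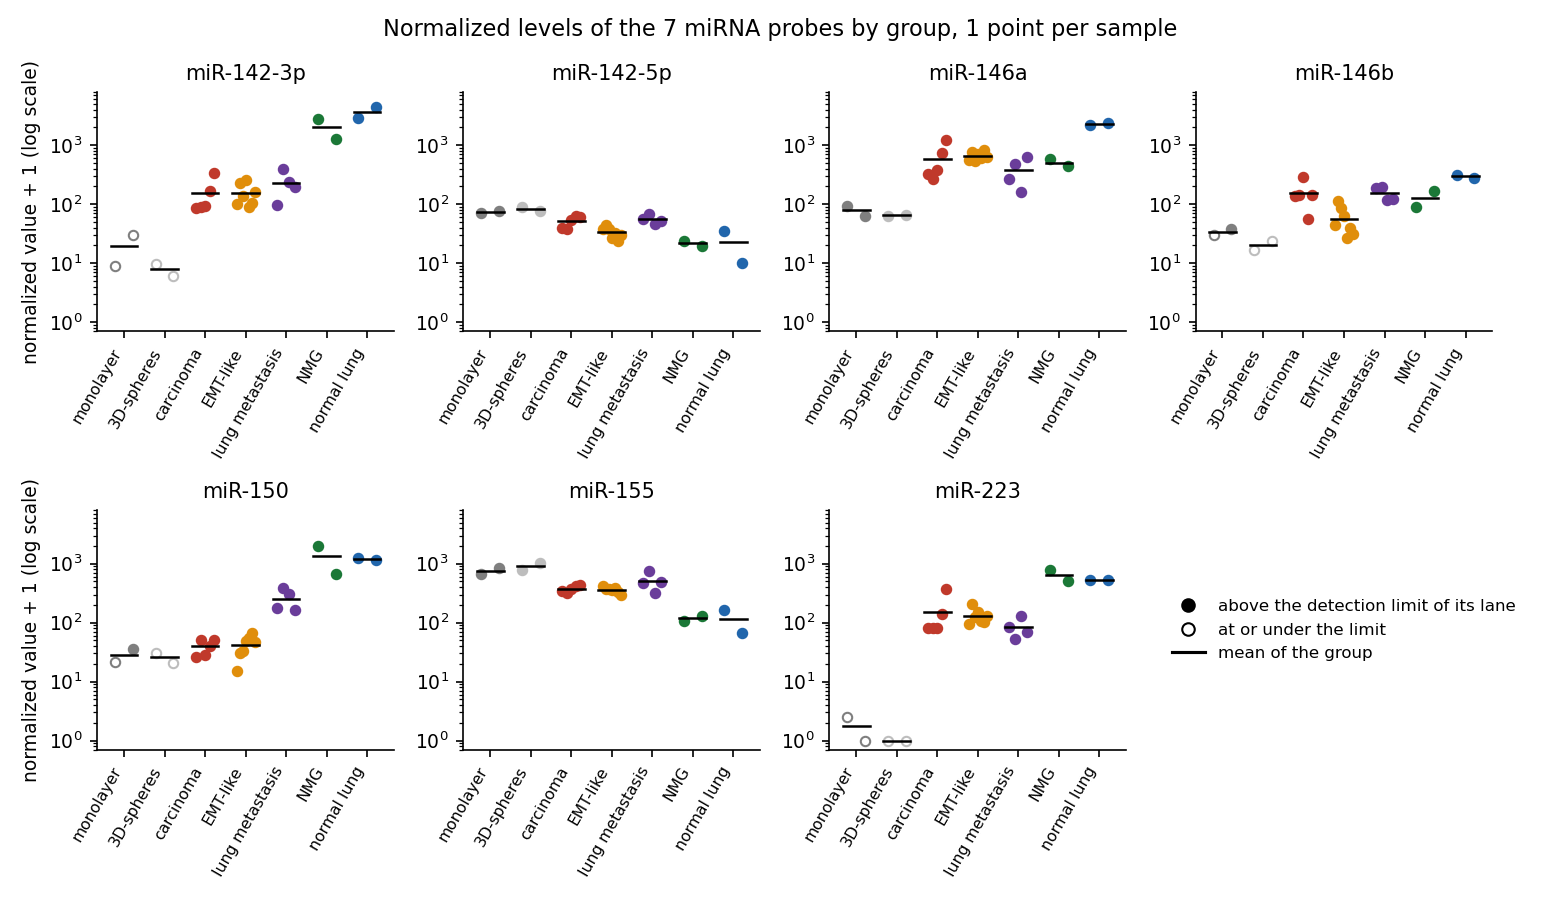
Normalized values plus 1 (log scale) of the 7 probes, 1 point per sample, in 7 groups, with a bar at the group mean and open points for values at or under the detection limit of the lane. miR-142-3p and miR-223 are under the limit in all 4 cultures, and miR-150 of lung metastasis (163 to 382) stands above all PT samples (14.3 to 65.7). miR-142-5p and miR-155 were nearly level in deposited values, and their course opposite to the others is seen in the scaled values.

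Cultured tumor cells were set against PT to see which members were detected in the tumor cell line alone. The culture lane sums were 24418 to 44953, against 113594 to 162045 in carcinoma and 110552 to 183539 in EMT-like areas. A value under the limit in culture therefore does not show that the line lacks the miRNA. miR-223 stood at 1, -9, -11 and -12 in the deposited values of the cultures and at 67 to 270 in PT. All 4 cultures were under the limit and all 12 PT samples above it, a difference of at least 3.79-fold. The limma adjusted p of 7e-13 belongs to the fit of values floored at 0 and does not test this bound. miR-142-3p, at 2 to 14 in the cultures and 75 to 267 in PT, was at least 4.18-fold lower in culture (adjusted p = 2.1e-07). Endothelial miR-126-3p and miR-126-5p, carried by host vessels, were likewise undetected in all 4 cultures, where their summed normalized level was 0, against 1067 to 2626 in PT. So were the epithelial probes miR-200a, miR-200b, miR-200c, miR-141 and miR-429, all called lower than in PT. The muscle probes miR-145 and miR-206 were detected in all 4 cultures. Which cells carry miR-223 and miR-142-3p in PT was not tested.

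Unlike miR-223 and miR-142-3p, miR-146a was detected in the cell line. Its deposited values were 60, 31, 36 and 26 in the cultures, above the limit in each, and 226 to 1054 in PT, a log2 difference of -3.04 (SE 0.33, adjusted p = 1.48e-07). Scaling by the 100 most abundant miRNAs ended this call (-0.73, adjusted p = 0.0637). miR-146b was detected in 1 of 4 cultures and fell by 1.56 on the log2 scale (SE 0.37, adjusted p = 0.0019), a call lost with scaling by the total (-0.52, adjusted p = 0.302) and a sign turned with the 100 most abundant (0.72, adjusted p = 0.0591). miR-150 was detected in 1 of 4 cultures, at 8 to 17 against 15 to 83 in PT, and its log2 difference of -0.54 did not pass the test (SE 0.35, adjusted p = 0.276). Its direction was not settled, since it was called lower without scaling (-1.44, adjusted p = 0.00471) and with a higher background subtracted, 2 SD above the mean negative control (-3.01, adjusted p = 0.000148), and higher with the 100 most abundant (1.73, adjusted p = 0.00112). The lowest PT values of miR-150 lay within the range of the cultures.

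In all, 6 of the 7 members were called in cultures against PT, 4 of them lower and 2 higher, beside 30.4% of the 583 probes tested (22% lower, 8.4% higher). The higher ones were miR-142-5p (0.997, SE 0.27, adjusted p = 0.00577) and miR-155 (1.16, SE 0.21, adjusted p = 0.000155). Without scaling their log2 differences were 0.06 and 0.21, and neither passed the test (adjusted p = 1 and 0.576). Between 3D-spheres and monolayer none of the 7 members was called by limma, and none had an unadjusted p under 0.05, beside 4.63% of all probes called (2.92% higher, 1.72% lower).

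Carcinoma and EMT-like areas were compared with NMG, the tissue of origin. miR-150 showed the largest difference of the members in both comparisons. Its normalized values were 25.5, 50.8, 26.8, 40.0 and 49.1 in carcinoma and 678 and 2029 in NMG, with no overlap. The log2 difference was -4.95 (SE 0.50, adjusted p = 1.8e-07), about 31.0-fold, and in EMT-like areas, where values ran from 14.3 over a median of 45.2 to 65.7, it was -4.92 (SE 0.48, adjusted p = 9.62e-08).

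miR-142-3p and miR-223 fell with it. miR-142-3p was at 85.4, 88.6, 92.9, 166 and 337 in carcinoma and at 1294 and 2780 in NMG, a log2 difference of -3.84 (SE 0.59, adjusted p = 3.62e-05). In EMT-like areas the difference was -3.73 (SE 0.57, adjusted p = 2.97e-05). miR-223 was at 79.1, 79.5, 79.9, 141 and 368 in carcinoma, with carcinoma replicate 5 above the rest, and at 510.1 and 782 in NMG. Its log2 difference was -2.37 (SE 0.51, adjusted p = 0.00121) for carcinoma and -2.31 (SE 0.49, adjusted p = 0.000995) for EMT-like areas. Scaling by the 100 most abundant miRNAs ended both calls of miR-223 (adjusted p = 0.0715 and 0.156), while those of miR-150 and miR-142-3p held under every alternative run. NMG shared no animal with the tumors, and its lane sums (525225 and 559660) exceeded those of carcinoma (113594 to 162045) and EMT-like areas (110552 to 183539). Tissue, animals and lane sum cannot be told apart here, under any alternative. The same holds for normal lung (589588 and 2334955) against metastasis (61497 to 114004).

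Neither probe of the miR-146 pair passed the test against NMG, and both depended on the scaling. For miR-146a the log2 difference from NMG was -0.02 (95% interval -1.02 to 0.97, adjusted p = 1) in carcinoma and 0.38 (-0.57 to 1.34, adjusted p = 0.658) in EMT-like areas, and its sign turned with the scaling in both. Without scaling it was called lower in carcinoma (-1.60, adjusted p = 0.0141), and when lanes were scaled to their 100 most abundant probes it was called higher in EMT-like areas (1.57, adjusted p = 0.0106). miR-146b differed by 0.16 (-0.94 to 1.26, adjusted p = 0.946) in carcinoma, a sign that also turned with the scaling, and by -1.27 (-2.33 to -0.22, adjusted p = 0.0727) in EMT-like areas, where 6 of 7 samples lay below both NMG samples. In EMT-like areas miR-146b was called lower in 6 of 22 alternatives, among them without scaling (-2.45, adjusted p = 0.0012) and with the mRNA controls (-2.29, adjusted p = 0.0398). In carcinoma it was called lower without scaling (-1.41, adjusted p = 0.0483).

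For carcinoma 5 of 7 members were called against NMG, 3 lower and 2 higher, beside 29.3% of all probes (23.8% lower, 5.49% higher). In EMT-like areas 4 were called, 3 lower and 1 higher, beside 24.9% (20.4% lower, 4.46% higher). Both comparisons share the 2 NMG samples. The median log2 difference of the members was -0.02 in carcinoma and -1.27 in EMT-like areas, against -0.68 and -0.30 over all probes. The higher calls were again the flat probes. miR-155 rose by 1.67 in carcinoma (SE 0.31, adjusted p = 0.000261) and by 1.60 in EMT-like areas (SE 0.30, adjusted p = 0.000274), and miR-142-5p by 1.21 in carcinoma (SE 0.39, adjusted p = 0.0213), while in EMT-like areas it differed by 0.60 (SE 0.37, adjusted p = 0.278). Without scaling miR-155 differed by 0.10 and 0.43 and miR-142-5p by -0.31 and -0.54, and none of these passed the test.

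Probes known as markers of other cell types moved in the same comparisons. The erythroid probes miR-144, miR-451 and miR-486 were all 3 lower than in NMG, for EMT-like areas as for carcinoma, with a summed level of 83.7 to 297 in PT and 8118 to 8509 in NMG. Both endothelial probes were lower (1067 to 2626 in PT, 10971 to 17649 in NMG), as were the smooth muscle probes miR-143 and miR-145 (765 to 1689 in PT, 6039 to 7591 in NMG) and 2 of the 3 stromal probes miR-199a-3p, miR-199a-5p and miR-214 (882 to 2844 in PT, 8645 to 9125 in NMG). The smooth muscle sum was 404 to 1371 in the cultures, which hold no host cells, and miR-145 was above the limit in all 4 of them. miR-143 was above it in 1 of 4, and all erythroid, endothelial and stromal probes were undetected in the 4 cultures. The part of host cells in the PT levels of the smooth muscle probes was not tested. miR-144 was undetected in every carcinoma sample. The part of these other cell types in the differences of the members was not tested.

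**Figure D3:**
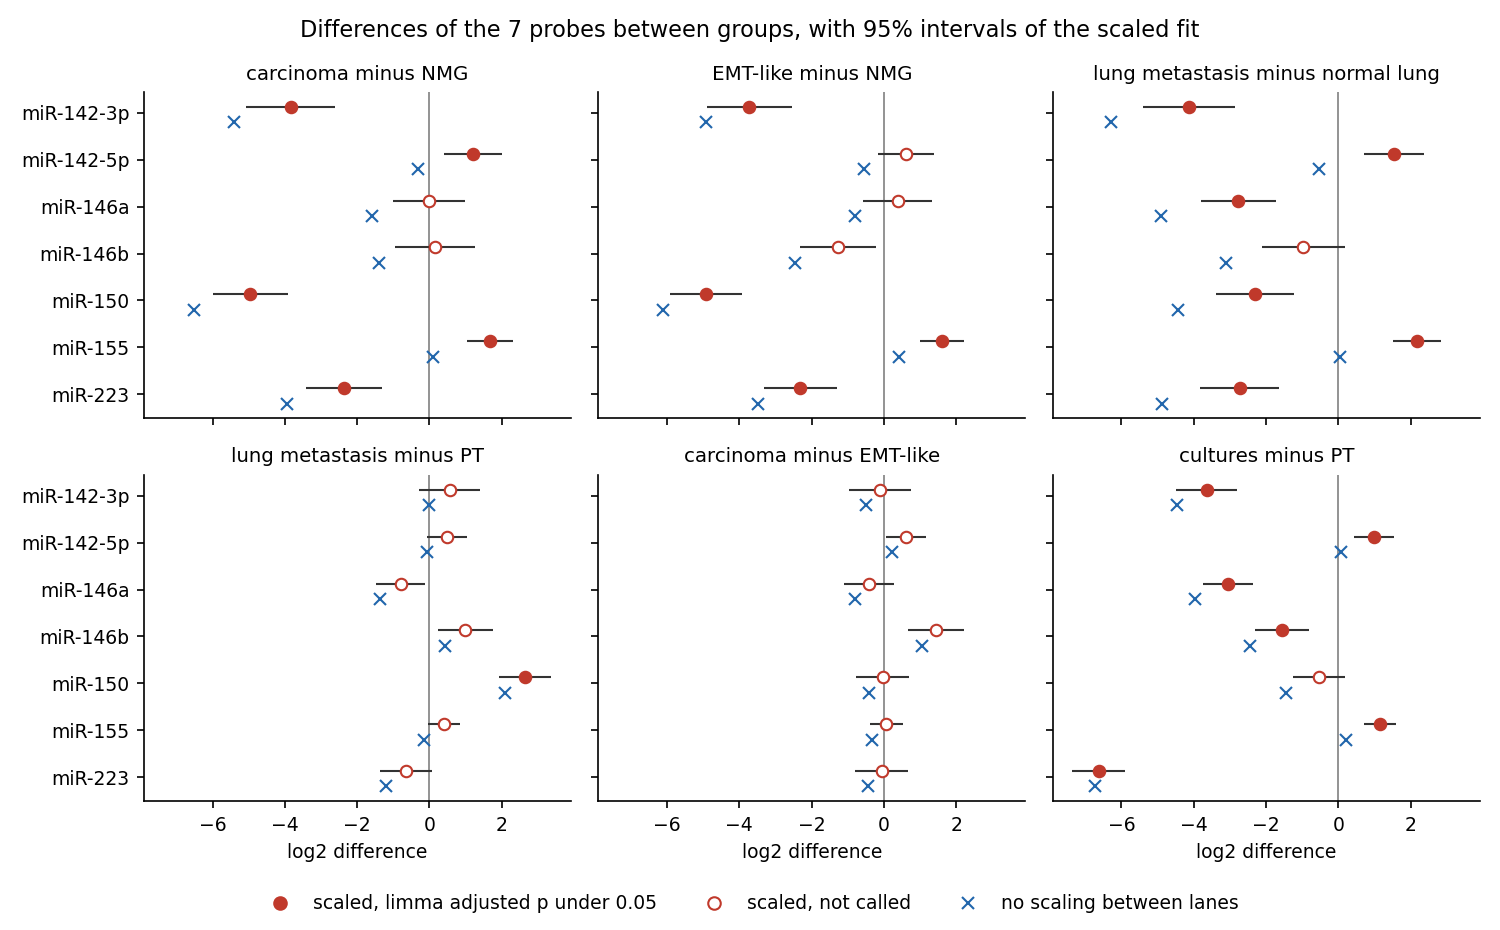
Log2 differences of the 7 probes in 6 comparisons, with circles and 95% intervals from the limma fit of scaled values (filled where the adjusted p was under 0.05) and crosses for the fit without scaling between lanes. miR-150, miR-142-3p and miR-223 lie below 0 against both normal tissues with and without scaling, and miR-150 lies above 0 in lung metastasis against PT. The crosses of miR-142-5p and miR-155 lie between -0.54 and 0.43.

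Lung metastasis was compared with normal lung, its host organ. miR-142-3p stood at 94.8, 387, 236 and 194 in metastasis and at 2878 and 4425 in normal lung, a log2 difference of -4.13 (SE 0.61, adjusted p = 1.01e-05). miR-146a stood at 262, 473, 162 and 626 against 2208 and 2352 (-2.76, SE 0.50, adjusted p = 0.000106). On the normalized scale every metastasis lay below both lung samples for miR-142-3p, miR-146a, miR-146b, miR-150 and miR-223. The share of all probes set apart in this way was not counted, and 42.2% of all probes were called lower. miR-223 fell by 2.73 (SE 0.53, adjusted p = 0.000218) and miR-150 by 2.30 (SE 0.52, adjusted p = 0.0012), and for miR-146b the difference was -0.97 (SE 0.55, adjusted p = 0.156). miR-146b was called lower in 4 of 19 alternatives, among them without scaling (-3.11, adjusted p = 0.000108), while its sign turned when the miRNA total (0.50) or the 100 most abundant probes (0.81) set the scale.

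With the flat probes miR-142-5p (1.53, adjusted p = 0.00388) and miR-155 (2.18, adjusted p = 8.91e-06), 6 of 7 members were called, 4 lower and 2 higher, beside 49.2% of all probes (42.2% lower, 7.03% higher). The unscaled differences of these probes were -0.54 and 0.04. Scaling by the 100 most abundant miRNAs left 3 of the 6 calls and ended those of miR-146a, miR-150 and miR-223 (adjusted p = 0.116, 0.567 and 0.225), and scaling by the miRNA total ended those of miR-150 and miR-223 (0.248 and 0.0615). The erythroid sum was 348 to 533 in metastasis against 49121 to 55994 in normal lung, and the endothelial sum 819 to 3114 against 67772 to 70140.5, with all 3 and both probes called lower.

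Normal lung and NMG differed in 1 member. miR-146a was higher in lung, at 2208 and 2352 against 582 and 435 in NMG (2.18, SE 0.57, adjusted p = 0.0123), 1 of 7 members beside 11.7% of all probes (10.5% higher, 1.2% lower). Within the 2 animals lung exceeded gland by 1.92 and 2.43 on the log2 scale. The call was lost without normal lung replicate 2 (adjusted p = 0.0823), without NMG replicate 2 (0.112) and under scaling to the total (0.117) or to the 100 most abundant miRNAs (0.125).

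Whether tumors differed from their host tissue by the same amount in lung and in mammary gland was asked with an interaction term. Of the members, 2 passed, beside 11.5% of all probes (0.686% higher, 10.8% lower). For miR-146a the tumor-to-host difference differed between the organs by -2.98 (SE 0.66, adjusted p = 0.00365), with 0.21 for PT against NMG and -2.76 for metastasis against lung. For miR-150 it was higher in lung by 2.63 (SE 0.70, adjusted p = 0.014), with -4.93 for PT against NMG and -2.30 for metastasis against lung. The call of miR-146a held in 33 of 33 alternatives. That of miR-150 held in 28 of 33 and was lost without NMG replicate 1 (adjusted p = 0.207) or normal lung replicate 2 (0.061), without scaling (0.104), with the mRNA controls as scale (0.326) and with the higher background (0.0683).

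Metastasis and PT were compared directly. miR-150 was the member that differed, and it is known as a miRNA of mature lymphocytes. Its deposited values were 134, 200, 236 and 112 in metastasis, and in PT they ran from 15 over a median of 36.5 to 83, with no overlap. On the normalized scale every metastasis, at 163 to 382, lay above every PT sample, and the log2 difference of 2.65 (SE 0.35, 95% interval 1.93 to 3.37, adjusted p = 5e-05) passed in all 29 alternatives. This was 1 of 7 members, beside 3.09% of all probes (0.515% higher, 2.57% lower). Since PT values of miR-150 lay near the detection limit, 15 to 83 against limits of 8.76 to 20.6, the size of the fold is less certain than its direction.

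The difference was present within animals. In the 4 labels that hold both tissues, metastasis exceeded the mean of the primary samples by 3.14, 2.95, 2.19 and 1.83 on the log2 scale, the first of these being the label of 3 animals. Labels of the tumor samples fall into a lettered and a numbered series of animals, and the normal tissues belong to neither. The difference was 2.65 in the lettered series (1 metastasis and 5 PT samples) and 2.48 in the numbered series (3 and 7).

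**Figure D4:**
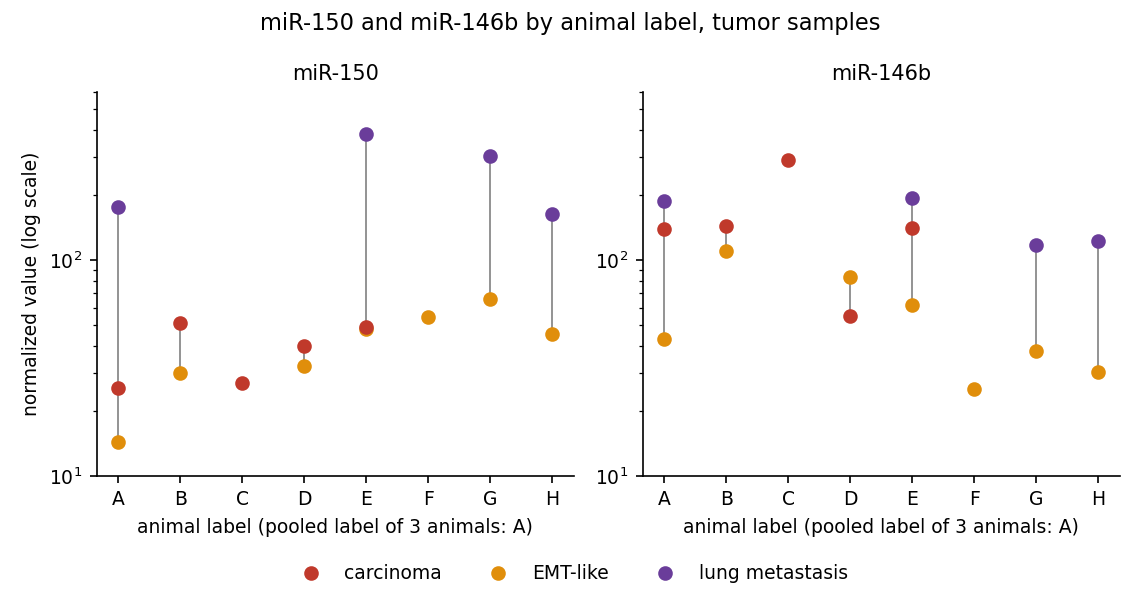
Normalized values (log scale) of miR-150 and miR-146b in tumor samples by animal label, with label A naming 3 animals, 1 point per sample, colors for carcinoma, EMT-like areas and lung metastasis, and lines joining samples of a label. Metastasis lies above the primary samples of its label in 4 of 4 labels for both miRNAs, by 1.83 to 3.14 for miR-150 and 1.04 to 1.98 for miR-146b on the log2 scale.

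No other leukocyte member passed the test in this comparison. For miR-142-3p, made in most leukocytes, metastasis differed from PT by 0.55 (95% interval -0.29 to 1.40, adjusted p = 0.684), a sign lost without scaling (-0.01). Within the 4 labels metastasis exceeded the mean of the primary samples in 4, by 0.03 to 1.18. For miR-223 the difference was -0.65 (-1.38 to 0.07, adjusted p = 0.395), and for miR-146a -0.80 (-1.49 to -0.11, adjusted p = 0.212), with metastasis higher in 1 of 4 labels for each. The difference of miR-146a passed the test without scaling (-1.36, adjusted p = 0.0189) and with the higher background subtracted (-1.29, adjusted p = 0.0373). miR-146b differed by 0.99 (0.23 to 1.75, adjusted p = 0.145). Within the 4 labels its value in metastasis exceeded the mean of the primary samples in 4, by 1.04 to 1.98, although in 2 of these labels the primary samples were EMT-like only. Its group means were 154.7 in metastasis, 153 in carcinoma and 56.0 in EMT-like areas.

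Within a lane the scaling nearly cancels, so differences between members of 1 lane were also taken from the deposited values. The log2 difference of miR-150 minus miR-142-3p was 0.89, -0.02, 0.36 and -0.25 in the 4 metastases, and in PT it ran from -2.85 over a mean of -1.85 to -0.65. Every metastasis lay above every PT sample. It was also above NMG (-0.93 and -0.45) and normal lung (-1.96 and -1.22), where both miRNAs were high. For miR-223 minus miR-142-3p, PT samples stayed between -0.77 and 0.28 (-0.14 ± 0.25, SD, n = 12). Metastases were spread from -2.86 to -0.19, and both normal tissues lay lower than PT, with -1.83 and -1.34 in NMG and -2.46 and -3.04 in normal lung.

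**Figure D5:**
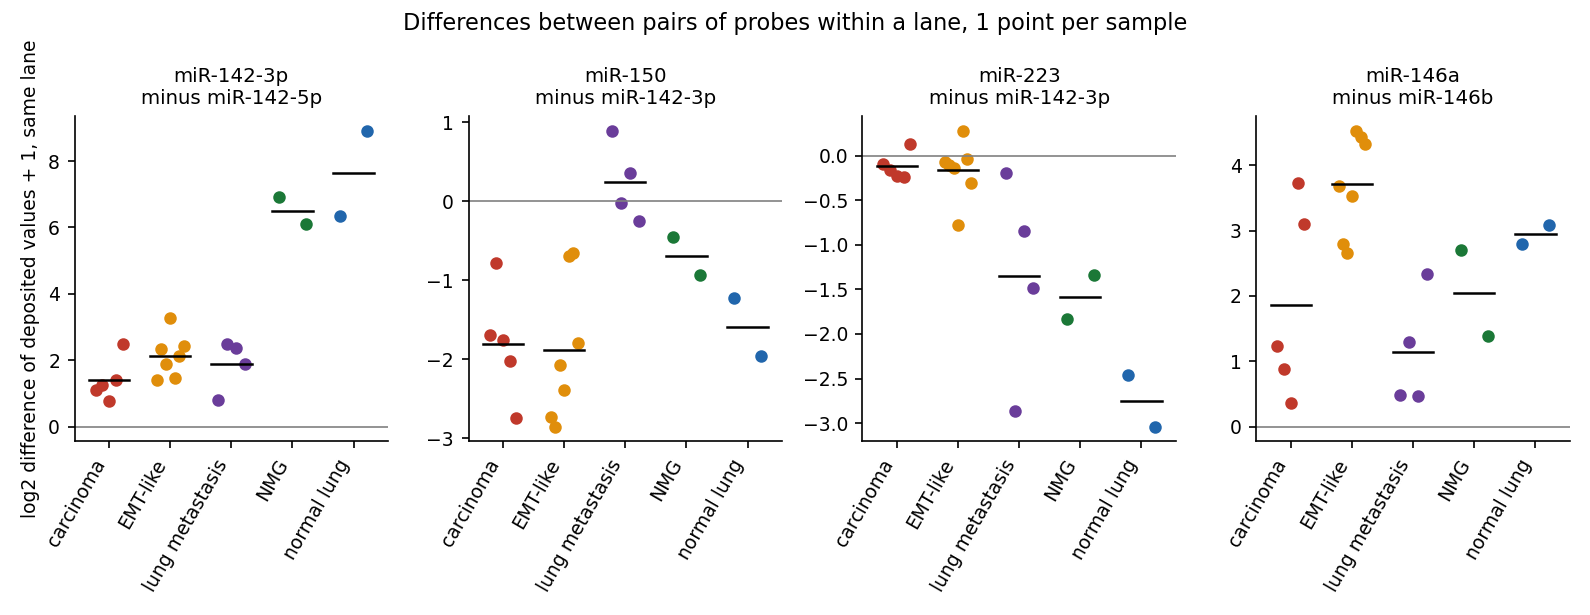
Log2 differences between pairs of probes in the same lane (deposited values plus 1), 1 point per sample with a bar at the group mean, for carcinoma, EMT-like areas, lung metastasis, NMG and normal lung. miR-150 minus miR-142-3p is between -0.25 and 0.89 in metastasis and at most -0.65 in PT, and miR-223 minus miR-142-3p is near 0 in PT (mean -0.14).

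Markers of other cells also moved between metastasis and PT. Of the 3 erythroid probes, miR-451 was called higher in metastasis (1.48, adjusted p = 0.00215), and the summed erythroid level was 348 to 533 in metastasis and 83.7 to 297 in PT. Of the 7 epithelial probes 1 was called higher (summed level 2509 to 4671 in metastasis, 59.4 to 5385 in PT), and of the 3 stromal probes 2 were called lower (230 to 995 against 882 to 2844). Neither endothelial probe was called, with summed levels of 819 to 3114 in metastasis, 1067 to 2626 in PT and 67772 to 70140.5 in normal lung. The part of these cells in the difference of miR-150 was not tested.

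Carcinoma and EMT-like areas of the primary tumors differed in no member by limma, beside 0.172% of all probes, and 2 of 7 members had an unadjusted p under 0.05. The nearest to a call was miR-146b. Its normalized values were 138.7, 144, 289, 55.0 and 140.4 in carcinoma and 25.4 to 110 (median 43.0) in EMT-like areas, so that 4 of 5 carcinoma samples lay above all 7 EMT-like samples. The log2 difference was 1.43 (SE 0.37, 95% interval 0.66 to 2.20, adjusted p = 0.0643). It passed the test in 4 of 25 alternatives, among them without carcinoma replicate 4 (adjusted p = 0.0176), EMT-like replicate 2 (0.0232) or EMT-like replicate 3 (0.0448). Carcinoma was higher in 3 of 4 labels with both areas (-0.60 to 1.67), and the difference was 1.37 in the lettered and 1.01 in the numbered series. For miR-142-5p the sign was also the same in both series. It turned between the series for miR-142-3p, miR-146a (-1.04 lettered, 0.54 numbered), miR-150, miR-155 and miR-223. Series means include samples without a partner area. Within the 4 labels with both areas, miR-150 was higher in carcinoma in 4, by 0.03 to 0.79. miR-142-3p, miR-146a, miR-155 and miR-223 were higher in carcinoma in 2 of 4 labels each.

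The difference between the members of the miR-146 pair, which share a seed, varied among tumor samples and was not tested. The within-lane log2 difference of miR-146a minus miR-146b ran from 2.66 to 4.53 for EMT-like areas (3.71 ± 0.77, SD, n = 7), from 0.36 to 3.73 for carcinoma (1.86 ± 1.47, SD, n = 5) and from 0.47 to 2.34 in metastasis (1.14 ± 0.89, SD, n = 4). Every EMT-like sample lay above every metastasis. The carcinoma samples divided by series of animals, with 1.24, 0.88 and 0.36 in the lettered series and 3.72 and 3.11 in the numbered series. The numbered values lay within the range of EMT-like areas. Over the 24 samples the log2 values of the pair had a Pearson correlation of 0.53, and after the group means of the 16 tumor samples were taken off it was -0.14. Points share lanes and animals, and these correlations are descriptions.

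The log2 normalized values of the arms of the miR-142 hairpin had a correlation of -0.72 over the 24 samples. miR-142-3p minus miR-142-5p was -3.37 to -1.34 in the cultures, 0.78 to 3.26 in PT, 6.09 to 6.91 in NMG and 6.35 to 8.91 in normal lung. Since miR-142-5p stayed between 27 and 56, this difference followed miR-142-3p. The pair most alike was that of the flat probes, miR-142-5p and miR-155 (0.89 over 24 samples, 0.66 within the tumor groups, n = 16). Dividing a flat probe by the factor of its lane gives it the inverse course of that factor. Correlations with a flat probe, the -0.72 between the arms included, are therefore set largely by the scaling. They do not tell how the miRNAs themselves ran. Among the 5 members that were not flat, miR-142-3p and miR-223 were the most alike over the 24 samples (0.88 over 24 samples, 0.63 within the tumor groups, n = 16), then miR-146a and miR-223 (0.87 and 0.40).

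The probes most like each member were sought among 189 mouse miRNAs above the limit in at least 12 samples, by Pearson correlation of log2 normalized values over the 24 samples. miR-142-3p was most like miR-451 (0.96), an erythroid miRNA, miR-30e (0.93) and miR-322 (0.93). miR-223 was most like miR-199a-5p (0.97), miR-199a-3p (0.97) and miR-126-3p (0.97), which mark stroma and endothelium. miR-150 had no such close match, with 0.83 for miR-29c, 0.82 for miR-103 and 0.80 for miR-451. miR-146a was most like miR-1902 (0.96), miR-450a-5p (0.90) and miR-27a (0.90).

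miR-146b ran with the epithelial miR-200 family, with 0.95 for miR-200a, 0.93 for miR-141 and 0.93 for miR-200b. Of the flat probes, miR-155 was most like miR-543 (0.92), miR-423-5p (0.89) and miR-34c (0.88), and miR-142-5p like miR-543 (0.91), miR-34c (0.88) and miR-202-5p (0.84). The probe names of miR-543 and miR-34c also state a share of positive control A. All these values share lanes and scaling factors, and for the flat probes the shared factor sets much of the correlation.

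Of 11 probes for other miRNAs described in leukocytes, 10 could be tested. Against NMG, carcinoma was lower in 4 of 10 (23.8% of all probes were lower), EMT-like areas were lower in 3 of 10 (20.4% of all), and none was called higher. Both counts include miR-342-5p, which was under the limit in every sample of all these groups and so gives no measured difference. The largest differences in carcinoma were those of miR-326, under the limit in all 5 samples and at least 1.92-fold lower (adjusted p = 0.0171), and of miR-139-5p (-2.74, adjusted p = 0.0176). miR-342-3p, a miRNA of hematopoietic cells, was among the 3 in EMT-like areas (-1.47, adjusted p = 0.022). In metastasis against normal lung 6 of 10 were lower and 0 higher, beside 42.2% of all probes lower. Among the 6 were miR-326 (-4.47, adjusted p = 0.00669) and miR-342-5p. miR-342-5p was at 0 in all 4 metastases and above the limit in 1 of 2 lung samples, so no fold is given. Its adjusted p of 4.34e-08 comes from a fit in which every metastasis stood at 0, and gives no measured difference.

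Normal lung exceeded NMG in 4 of these 10 probes (10.5% of all), 1 of them miR-342-5p, led by miR-181a (2.34, adjusted p = 3.72e-05) and miR-24 (2.18, adjusted p = 0.0098). Against PT, metastasis differed in miR-132 only, which was lower (-0.96, adjusted p = 0.0433), and none of the list was called higher. In the cultures 5 of 10 were lower than in PT (22% of all), led by miR-342-3p, under the limit in all 4 cultures and at least 3.50-fold lower (adjusted p = 1.47e-13), and miR-21 (-4.82, adjusted p = 1.55e-07), which is also abundant in many tumors. 3D-spheres exceeded the monolayer in miR-181a (1.69, adjusted p = 0.00522).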

How the data were processed

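Per the sample labels, tissue was captured by laser, total RNA was purified and 24 lanes of the nCounter mouse miRNA assay were run, and the processing notes name Partek. The scores deposited by the authors are counts minus the mean of 6 negative controls of the lane, with 35.2% of miRNA values below 0 and no scaling between lanes. Values were floored at 0 and scaled by trimmed mean of M-values (trims of 30% and 5%, reference lane carcinoma replicate 2). All 7 groups were fitted on log2(value + 1) with limma 3.58.1 in R 4.3.3 (trend, Benjamini-Hochberg over 583 probes above 0 in at least 1 sample). Scripts were tested on simulated data. Figures used Python 3.11.15. The members, the lists and the tests were chosen with earlier results of these data known. Animal or culture numbers in the labels pair samples, and deviations from group means within a tumor animal correlated by a median of 0.15 (-0.30 to 0.42, 10 pairs, 183 probes). Groups hold samples that share animals, so p-values measure the spread between these samples. Folds against an undetected group take its detection limits, whereas the p-values beside them come from the fit of values floored at 0.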

Additional observations from a re-analysis of the deposited data

Results flagged for a closer look

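The tumor-to-host difference was not the same in lung and in mammary gland for 2 members, by the interaction term of the limma fit. For miR-146a, metastasis minus normal lung differed from PT minus NMG by -2.98 on the log2 scale (SE 0.66, adjusted p = 0.00365). For miR-150 it differed by 2.63 (SE 0.70, adjusted p = 0.014). Each term rests on 2 samples of each normal tissue.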

How the results depend on the processing

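Values near the detection limit, 2 samples in each of 4 groups and lane sums that differ between tissues limit these results. Scaling shifted the median of all probes by up to -1.15 (carcinoma against NMG, no scaling), -1.43 and -1.72 (metastasis against normal lung, no scaling and mRNA controls) and 0.87 (the same, 100 most abundant miRNAs). The count of members called moved from 5 to 3 for carcinoma against NMG with the mRNA controls, from 1 to 0 for normal lung against NMG with the 100 most abundant or the total, from 6 to 3 for metastasis against normal lung with the 100 most abundant, from 1 to 2 for metastasis against PT without scaling or with the higher background (mean plus 2 SD of the negative controls subtracted), from 0 to 1 for carcinoma against EMT-like areas with a filter of at least 20 in 2 samples, and from 2 to 1 for the interaction without scaling, with the mRNA controls or with the higher background. Leaving out single samples gave 0 to 2 for normal lung against NMG (2 without normal lung replicate 1), 0 to 1 for carcinoma against EMT-like areas and 1 to 4 for the interaction (4 without normal lung replicate 1).

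Signs that turned, none of them past the test unless a p is given, were these on the log2 scale. Without scaling: miR-142-5p -0.31 (carcinoma against NMG), -0.54 (EMT-like) and -0.54 (metastasis against lung), miR-146b -1.41 (carcinoma against NMG, adjusted p = 0.0483), miR-146a -0.80 (EMT-like against NMG), miR-142-3p -0.0089 (metastasis against PT). With the mRNA controls: miR-146b -0.72 (carcinoma against NMG), miR-142-5p -0.39 and miR-146a -0.64 (EMT-like against NMG), miR-142-5p -0.89 and miR-155 -0.31 (metastasis against lung). With the 100 most abundant: miR-146a 0.88 (carcinoma against NMG), miR-146b 0.81 (metastasis against lung) and 0.72 (cultures against PT), miR-150 1.73 (cultures against PT, adjusted p = 0.00112). With the total: miR-146a 0.43 (carcinoma against NMG), miR-146b 0.50 (metastasis against lung) and miR-150 0.50 (cultures against PT). For carcinoma against NMG also miR-146a 0.041 with the series as a term and 0.12 without the pooled samples (chosen after seeing the data), and miR-146b -0.29 with lung metastasis replicate 3 as the reference lane and -0.26 with the higher background. Without 1 sample, miR-146a there ran from -0.35 to 0.20 and miR-146b from -0.29 to 0.60. The cause was not tested. Among the remaining values, 837 single results and 190 counts kept direction and side of the threshold, 36 single results lost their call, 22 gained one, and 36 levels or differences within lanes moved by more than the SD of their group.

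With the replicate block (animal or culture number as a random block, correlation -0.01) no call of a member changed, and the adjusted p of miR-150 in metastasis against PT was 5.22e-05.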
